A study of Mus musculus with 15 samples.

Results

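The female pituitary was profiled by RNA-seq in mice that lacked the pituitary enhancer (PE) of Nr5a1 on both chromosomes (PE−/−) and in controls that lacked it on 1 chromosome (PE+/−). These libraries are 7 of the 15 in the series, taken by their labels, with 4 PE+/− and 3 PE−/− females. The enhancer lies in the sixth intron of Nr5a1 and was deleted with CRISPR/Cas9, so that all mice, the controls included, carried at least 1 deleted copy and no library came from a mouse with both copies intact. Per the study's methods, RNA came from the whole pituitary gland and libraries were made with a kit for low input. No other allele or treatment is given. The labels state neither the age of these females nor their stage of the oestrous cycle. The remaining 8 libraries, 4 PE+/− and 4 PE−/− males, enter below only where the sexes were compared.

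Nr5a1 encodes the nuclear receptor NR5A1 (SF-1), which in the pituitary is made in gonadotropes. These cells carry the receptor for gonadotropin-releasing hormone (GnRH) and secrete LH (luteinizing hormone) and FSH (which stimulates ovarian follicles), each a common α subunit joined to its own β subunit. The gonadotropins drive the ovary, and ovarian oestrogen in turn acts on the pituitary through oestrogen receptor α, where it is best known for raising prolactin and galanin in lactotropes. The p-values below measure only the spread between these libraries. The comparison asked which transcripts fell or rose in females without the enhancer, in gonadotropes and in the rest of the gland.

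Library totals ran from 12982794 to 23451887 estimated counts in PE+/− and from 17606866 to 30238443 in PE−/− females. Each fragment added about 4 counts, and a gene with no more than 12 counts (3 fragments) in every library of a group was treated as at the floor of detection, which covers counting error only. Levels are given as CPM, counts scaled to a common library size, after TMM scaling of these 7 libraries. Means are given ± SD over 4 PE+/− and 3 PE−/− libraries, and library values are listed from replicate 1 upwards. The hormone genes that define the anterior and intermediate lobes were high in every library, with 59684 to 175408 CPM of Gh, 4513 to 35328 CPM of Prl, 25750.4 to 52302 CPM of Pomc, 149.5 to 325 CPM of Tshb and 2219.7 to 8151 CPM of Cga. Of 7 posterior lobe genes Avp, Oxt, Nkx2-1, Rax and Lhx2 stayed at the floor in all 7 libraries. The other two were low, with 10.6 ± 6.29 and 1.29 ± 1.07 CPM of Col25a1 (adjusted p = 0.115, and 0.000935 in DESeq2) and 1.23 ± 0.796 and 1.15 ± 0.441 CPM of Gfap. On a principal component analysis the first component (26.4% of the variance) placed the PE+/− females at −74.9 to −30.5 and the PE−/− females at 53.9 to 66.5. PE+/− replicate 1 stood apart on the second component (20.6%), at 107 against −38.5 to 29.3 for the others. It was the lowest control for 51.6% of the genes that fell and for 30.01% of all genes tested.

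More genes were lower than higher in females without the enhancer. Among 18085 genes, 189 (1.05%) passed the threshold, an adjusted p of 0.05 in edgeR, with 126 lower (0.697%) and 63 higher (0.348%) in PE−/− females. Among the lower genes 54 had a log2 fold change under −2, 55 lay between −2 and −1, and 17 were lower by less. Among the higher genes 23 lay above 2, 36 between 1 and 2, and 4 below 1. The median log2 fold change over all genes tested was 0.0018. All 189 genes were also past the threshold in DESeq2, which called 1431 (7.91%, with 3.4% higher). For scale, 16.1% of all genes had an unadjusted p under 0.05, with 8.39% lower and 7.75% higher. Groups did not overlap for 9.15% (lower) and 9.44% (higher) of all genes. List counts below at an unadjusted p without a direction compare with the 16.1%, and those of DESeq2 with its 7.91%. Single libraries carried many calls. Leaving out PE+/− replicate 1 cost 39 of the 189, and leaving out any other library cost 111 to 172 each. Only 16 genes were past the threshold in all 7 of these fits, namely Nr5a1, Gnrhr, Lhb, Tgfbr3l, Prl, Akr1c14, Crhbp, Rxfp1, Zfp46, Mc3r and Cpeb4 among the lower genes and Nell1, Epha3, Efnb3, Npbwr1 and Tnfrsf1a among the higher ones.

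**Figure D1:**
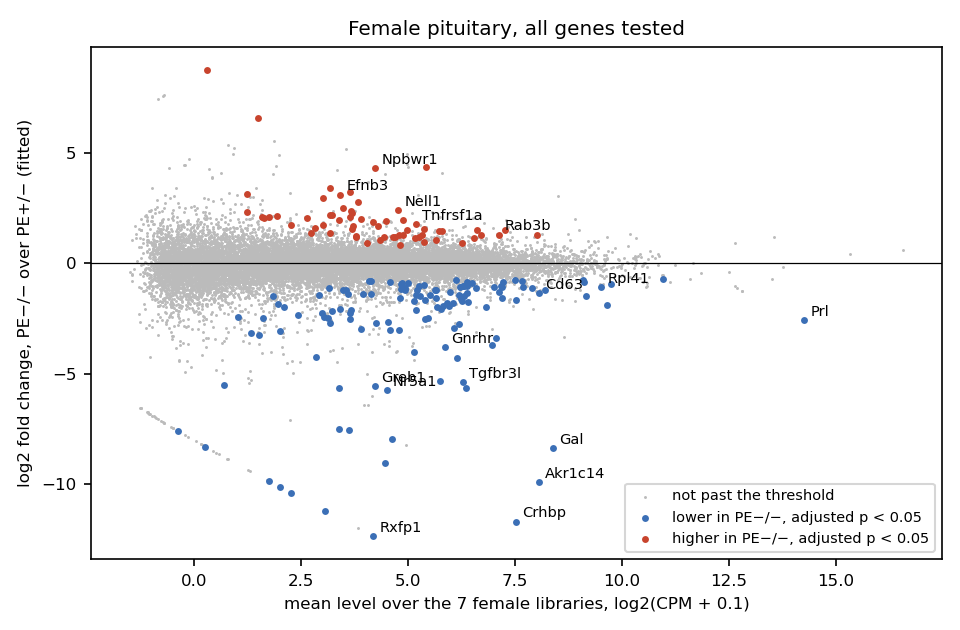
Each point is 1 of the 18085 genes tested, with its mean level over the 7 female libraries (log2 of CPM plus 0.1) against its fitted log2 fold change, PE−/− over PE+/− females. The 126 lower genes (blue) reach further from 0 than the 63 higher ones (red), and Prl is the most abundant gene past the threshold. The diagonal row of points at the lower left holds genes with no count in any PE−/− library, whose fitted values depend on a prior count.

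Gonadotrope genes made up the best defined group of lower transcripts. Of 13 tested members of the list, 6 fell and 0 rose, and the median log2 fold change of the list was −2.47. DESeq2 called 7 lower and 0 higher. With counts summed per assembled locus the median was −1.31, the value of the Tgfbr3l locus. Part of this list comes from the study's own work on these samples, so its direction is not independent evidence. Nr5a1, the targeted gene (MSTRG.13371 in the files, chromosome 2, 38692656 to 38714542, mm10), was at 34.5, 40.4, 36.3 and 45.7 CPM in the PE+/− females and at 0.621, 0.908 and 0.660 CPM in the PE−/− females. No PE−/− library came near a control, and 1.86% of the control mean was left (log2 fold change −5.72, SE 0.24, adjusted p = 0.000253). Lhb, the β subunit of LH (chromosome 7, 45420820 to 45421897), was at 203, 249, 205 and 173 CPM in controls and at 11.4, 23.4 and 13.98 CPM in PE−/− females. Gnrhr, the GnRH receptor (chromosome 5, 86180754 to 86197901), went from 108, 77.2, 102 and 101 CPM to 5.40, 9.80 and 5.58 CPM. In both genes the groups were far apart, with 7.84% of the control mean left for Lhb and 7.14% for Gnrhr (adjusted p = 0.00698 and 0.00633).

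The remaining lower members were Tgfbr3l, a co-receptor for inhibin B, Spp1, which encodes osteopontin, and Nr0b1, which encodes the corepressor DAX-1. Tgfbr3l (chromosome 8, 4248214 to 4251423) was at 168, 125, 112 and 134 CPM in controls and at 3.35, 3.19 and 3.25 CPM in PE−/− females. Its assembled locus also holds Map2k7, and the sum of all rows of that locus changed by −1.31. Spp1 had 68.7 ± 20.4 CPM in PE+/− and 12.4 ± 2.36 CPM in PE−/− females (−2.47, SE 0.28, adjusted p = 0.0194), and Nr0b1 17.9 ± 4.69 and 0.343 ± 0.378 CPM (−5.62, SE 0.79, adjusted p = 0.0298). Spp1 lost its call without PE+/− replicate 2 or any PE−/− replicate (−2.58 to −2.32), and Nr0b1 without PE+/− replicates 2 to 4 or PE−/− replicates 2 and 3 (−6.66 to −5.45). Fshb, the β subunit of FSH (chromosome 2, 107056140 to 107059656), was at 367, 335, 165 and 1764 CPM in controls and at 40.6, 82.8 and 71.0 CPM in PE−/− females. The groups did not overlap, but PE+/− replicate 4 was several times the other controls, and the change missed the threshold (−3.34, SE 0.88, adjusted p = 0.125). By qRT-PCR the study reported a significant reduction of Fshb in PE−/− females. Cga, the common α subunit that thyrotropes also make, overlapped between the groups (6492 ± 1176 and 5011 ± 2469.8 CPM, adjusted p = 0.701). The transcription factor Pitx1 missed the threshold as well (0.26, adjusted p = 0.798). In RNA of undivided tissue, fewer cells of a type and less RNA per cell cannot be told apart.

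The sequence before the start of Lhb and Nr0b1 is shown because NR5A1 binds sites of the kind CAAGGTCA, whose core is AGGTCA. The sequences are from RefSeq on GRCm38.p6, 250 bases that end just before the start, on the strand of the gene, with the match in capitals. The RefSeq start can differ from the gene ends in the deposited files, and the Lhb and Crhbp windows reach into the gene as those files give it. The Lhb window (chr7:45420696-45420945, plus strand) holds CAAGGTCA on the opposite strand, with its first base 129 bases before the start. The Nr0b1 window (chrX:86191525-86191774, plus strand) holds AGGTCA 126 bases before the start.
Lhb: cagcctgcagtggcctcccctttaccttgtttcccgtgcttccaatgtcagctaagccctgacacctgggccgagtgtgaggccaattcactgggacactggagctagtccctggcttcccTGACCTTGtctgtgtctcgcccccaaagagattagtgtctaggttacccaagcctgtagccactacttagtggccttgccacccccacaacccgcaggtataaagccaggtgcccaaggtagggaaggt
Nr0b1: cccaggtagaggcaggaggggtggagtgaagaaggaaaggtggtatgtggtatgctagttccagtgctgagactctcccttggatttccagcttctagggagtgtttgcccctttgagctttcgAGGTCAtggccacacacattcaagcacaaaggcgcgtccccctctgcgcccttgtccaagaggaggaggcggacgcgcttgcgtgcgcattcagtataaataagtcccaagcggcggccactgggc
Over all 32851 promoter windows of 300 bases (250 before and 50 after the start), searched on both strands, CAAGGTCA stood in 1.56% and AGGTCA in 16.3%. The 83 lower genes with an entry had 106 windows, of which 2 held CAAGGTCA (Lhb and Adtrp) and 13 (12.3%) held AGGTCA. The 41 higher genes had 55 windows, of which 1 held CAAGGTCA (Dner) and 7 (12.7%) held AGGTCA. Every CAAGGTCA match is also an AGGTCA match. The longer form TCAAGGTCA was in 0 windows of either group and in 0.423% of all windows. Among the other lower gonadotrope genes with an entry, Gnrhr, Spp1 and Tgfbr3l held no AGGTCA, while Cga and Grem1, which were not past the threshold, did. The study cites other work that placed an NR5A1 site in the mouse Tgfbr3l promoter, so a window without these letters does not show that a site is absent. Only these spellings were searched, so other forms of such a site are not marked in the windows shown. The matches describe letters and not bound sites.

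The chain downstream of the GnRH receptor and the activin pathway were followed next. Of 35 tested genes of the GnRH signalling chain, from G proteins to immediate early factors, only Gnrhr was past the threshold, and the median was 0.08. Egr1, an early factor of GnRH signalling, ranged from 14.5 to 281 CPM in controls and from 159.7 to 400.0 CPM in PE−/− females, with overlapping groups (adjusted p = 0.562). In the list of activin, inhibin and BMP genes 1 of 37 rose and 1 fell, with a median of 0.22. At an unadjusted p under 0.05, 8 were higher and 1 lower (against 7.75% and 8.39% of all genes). Higher groups without overlap were found for 9 (against 9.44%). DESeq2 called 3 higher and 1 lower (against 3.4% and 4.52%). The lower one was Tgfbr3l. The higher one was Bmp15, a factor best known from the oocyte (chromosome X, 6314107 to 6320721), which had 0 counts in all 4 controls and 2.55, 2.94 and 2.46 CPM in the PE−/− females. This is at least 3.70-fold higher, against a floor of 12 counts per library (adjusted p = 0.0309). Bmp15 lost its call without PE+/− replicate 2 or any PE−/− replicate, with the controls still at 0 counts.

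Prolactin was the most abundant transcript that fell. Prl (chromosome 13, 27057570 to 27065205) was at 34839.5, 29739.9, 22135 and 35328 CPM in controls and at 5217, 4513 and 5626 CPM in PE−/− females. The lowest control was well above the highest PE−/− library, and 16.8% of the control mean was left (−2.58, SE 0.21, adjusted p = 0.00698). Of the 10 lactotrope genes tested, only Prl and Akr1c14 were past the threshold, both lower, and the median of the list was −0.20. At an unadjusted p under 0.05, 4 were lower and 1 higher (against 8.39% and 7.75% of all genes). DESeq2 called 2 lower and 1 higher (against 4.52% and 3.4%). Pou1f1, the transcription factor that lactotropes, somatotropes and thyrotropes share, did not pass (709.5 ± 205 and 568 ± 47.4 CPM, adjusted p = 0.615). Drd2, the dopamine receptor that restrains prolactin, did not pass either (28.1 ± 7.27 and 32.6 ± 1.22 CPM, adjusted p = 0.700).

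Genes known to be induced by oestrogen held several of the deepest falls. Of 21 tested members of that list 5 fell (Rxfp1, Prl, Crhbp, Greb1 and Gal) and 1 rose (Tgfa), with a median of −0.43. The list was drawn up with earlier results on these samples known. Its count of 6 came to 5 without PE+/− replicate 1 or 3, to 6 without PE+/− replicate 4 and to 3 without PE+/− replicate 2 or any PE−/− replicate. Gal, which encodes galanin, a neuropeptide that oestrogen raises in lactotropes of rodents (chromosome 19, 3409915 to 3414544), was at 89.4, 769, 752 and 735 CPM in controls and at 0.932, 2.004 and 2.42 CPM in PE−/− females. Even the low PE+/− replicate 1 was far above every PE−/− library (−8.34, SE 0.98, adjusted p = 0.0207). Crhbp, which binds and holds corticotropin-releasing hormone (chromosome 13, 95431371 to 95444924), was at 336, 163, 475 and 317 CPM in controls and at 0, 0.219 and 0 CPM in PE−/− females. With about 2 fragments in all PE−/− libraries against 5464 in controls, the ratio was 2739 (95% exact interval 758 to 22626, counting error only, adjusted p = 0.00698). Rxfp1, the relaxin receptor (chromosome 3, 79641611 to 79737880), went from 19.5, 29.6, 35.7 and 42.6 CPM to 0 counts in each PE−/− female, at least 58.0-fold lower (adjusted p = 0.00698). Greb1, a cofactor of the oestrogen receptor and one of its targets (chromosome 12, 16670615 to 16800886), went from 19.7, 23.6, 66.3 and 19.0 CPM to 0.683, 0.532 and 0.835 CPM (−5.55, SE 0.63, adjusted p = 0.0195). Gal and Greb1 kept their calls without PE+/− replicates 1, 3 or 4 and lost them without the 4 others (−8.61 to −8.04 and −5.73 to −5.39).

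**Figure D2:**
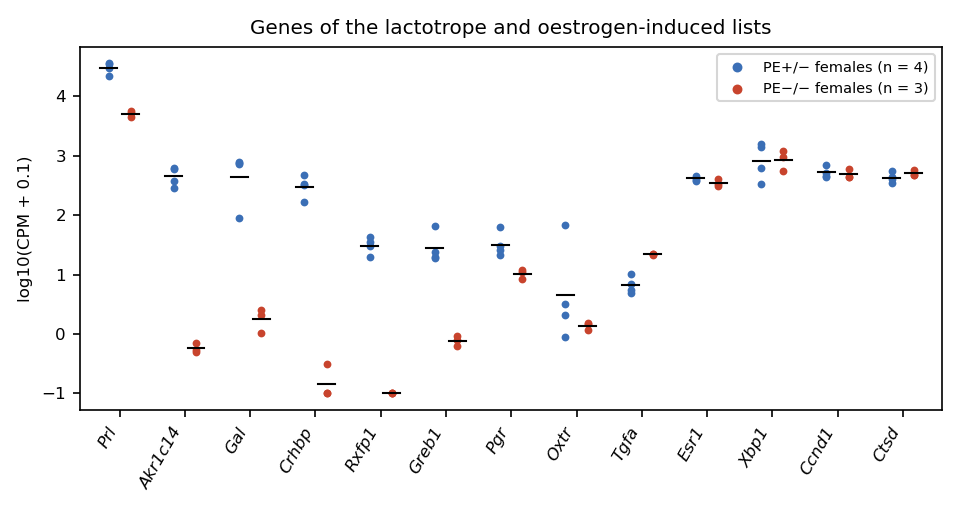
Levels of 13 genes of the lactotrope and oestrogen-induced lists, as log10 of CPM plus 0.1, with 1 point for each PE+/− (blue, n = 4) and PE−/− (red, n = 3) female and a bar at the mean of the log values. Gal, Crhbp, Rxfp1, Greb1 and Akr1c14 are separated by more than 1 log10 unit, while the groups overlap for Esr1, Xbp1, Ccnd1 and Ctsd.

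Tgfa, a ligand of the epidermal growth factor receptor, rose from 6.74 ± 2.38 to 21.7 ± 0.687 CPM (1.69, SE 0.27, adjusted p = 0.042). It was past the threshold in only 1 fit that left out a library, that without PE+/− replicate 4 (1.54 to 1.71 in the other 6). Pgr, the progesterone receptor and a classical oestrogen target, was chosen after its values were seen. It was at 21.2, 25.4, 62.2 and 29.8 CPM in controls and at 8.38, 10.99 and 11.8 CPM in PE−/− females, with no overlap. It missed the threshold in edgeR (−1.73, SE 0.40, adjusted p = 0.096) and passed it in DESeq2 (adjusted p = 0.00142). Oxtr, the oxytocin receptor, also chosen after its values were seen, was high in 1 library only, with 67.3 CPM in PE+/− replicate 3 against 0.800 to 3.13 CPM in the other controls and 1.06 to 1.43 CPM in PE−/− females. The same library had the highest Greb1 and Pgr of all 7. Esr1, the oestrogen receptor itself, did not pass (413 ± 36.1 and 349 ± 54.3 CPM, adjusted p = 0.475), nor did Xbp1 (−0.14), Ccnd1 (−0.12) and Ctsd (0.23).

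Windows of Crhbp and Greb1 are shown as the 2 lower genes of this list with a RefSeq window that holds AGGTCA, the unit that an oestrogen response element holds in inverted repeat. In the Crhbp window (chr13:95444832-95445081, minus strand) the match starts 152 bases before the start. In the Greb1 window (chr12:16800887-16801136, minus strand) it stands on the opposite strand, 88 bases before the start. Greb1 has a further window without AGGTCA, and Rxfp1 was not matched. The windows of Gal and Prl, which fell, held no AGGTCA. Cited1, Ctsd, Igf1, Ltf and Oxtr of the same list, none of them past the threshold, had a window that did.
Crhbp: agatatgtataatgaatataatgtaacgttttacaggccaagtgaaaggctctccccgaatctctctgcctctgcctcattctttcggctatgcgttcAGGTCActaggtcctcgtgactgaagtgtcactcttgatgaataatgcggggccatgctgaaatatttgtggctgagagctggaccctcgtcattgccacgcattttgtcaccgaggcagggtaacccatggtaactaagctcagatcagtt
Greb1: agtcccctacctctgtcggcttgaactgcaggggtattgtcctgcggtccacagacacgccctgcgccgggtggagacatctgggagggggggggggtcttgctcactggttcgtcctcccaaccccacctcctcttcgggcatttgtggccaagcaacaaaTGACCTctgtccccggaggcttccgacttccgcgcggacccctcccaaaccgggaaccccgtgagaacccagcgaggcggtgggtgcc
The full palindromic oestrogen response element was in 0.0700% of all windows and in 1 window of a lower gene, 4933406B17Rik. Its shorter part TGACC, which lies within the reverse complement of AGGTCA, was in 40.5% of all windows, in 38.7% of those of lower genes and in 29.1% of those of higher genes.

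Few genes of the peptide and steroid families were past the threshold. Among 17 tested neuropeptides and peptide-binding proteins Crhbp and Gal fell and 0 rose, with a median of −0.13. Their summed level was 594 to 1379 CPM in controls and 127 to 152 CPM in PE−/− females. Crhbp and Gal made up most of the sum in controls, so it does not show a fall of the family. Of the 17 members 10 had negative and 7 positive values. Vip, chosen after its values were seen, was at 6.08, 4.62, 6.37 and 1.23 CPM in controls and at 0, 0.407 and 0.616 CPM in PE−/− females, and missed the threshold in edgeR (adjusted p = 0.115) but not in DESeq2 (adjusted p = 0.000788). Of 15 tested steroid-metabolising enzymes 2 fell, with a median of 0.05. Akr1c14, a 3α-hydroxysteroid dehydrogenase that acts on progestogen and androgen metabolites (chromosome 13, 4049011 to 4090688), went from 287, 372, 589.7 and 628 CPM to 0.435, 0.407 and 0.616 CPM. This left 0.104% of the control mean (−9.90, SE 0.47, adjusted p = 0.000457). The PE−/− levels of Akr1c14 lie near the floor, which averaged 0.55 CPM in that group, so the share left is imprecise. Sult5a1, a sulfotransferase, fell from 3.90 ± 2.25 to 0.433 ± 0.0554 CPM (−3.15, adjusted p = 0.0438). It kept its call only without PE+/− replicate 1 (−3.36 to −3.09 in the other 6 fits). Ecel1, related to the endothelin-converting enzymes, was the 1 gene past the threshold among 24 granins and processing proteins. It went from 28.2, 91.7, 161 and 195 CPM to 3.79, 7.61 and 6.73 CPM (−4.29, SE 0.71, adjusted p = 0.0447), and kept its call only without PE+/− replicate 1 (−4.49 to −3.95 otherwise).

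The other endocrine lineages showed no common fall. Of 6 tested somatotrope, 4 melanotrope and 4 thyrotrope genes 0 were past the threshold at an adjusted p of 0.05 in edgeR, while 4, 1 and 1 had an unadjusted p under 0.05 and DESeq2 called 1, 0 and 1. Their medians were 0.62, 0.53 and 0.35. The hormone genes gave 79737 ± 20833 and 122538 ± 46621 CPM for Gh (adjusted p = 0.365), 35733 ± 11656 and 48651 ± 3278 CPM for Pomc (adjusted p = 0.455) and 224 ± 79.7 and 278 ± 22.4 CPM for Tshb (adjusted p = 0.656). Of 6 corticotrope genes Neurod1, a basic helix-loop-helix factor that acts with Tbx19 on Pomc, rose from 18.1, 14.04, 14.8 and 17.8 CPM to 32.0, 43.8 and 34.5 CPM (1.19, SE 0.17, adjusted p = 0.0328). Its call held only without PE+/− replicate 1 (1.04 to 1.28 otherwise). All 6 corticotrope genes had positive values, with a median of 0.52.

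Markers of non-endocrine cells were followed to see what else the glands held. Of 9 stem or folliculostellate, 12 endothelial and 14 immune genes 0 were past the threshold in edgeR, with 2, 1 and 0 at an unadjusted p under 0.05 and 2, 0 and 0 in DESeq2. Their summed levels overlapped between the groups for stem (383 to 862 CPM in controls and 621 to 817 CPM in PE−/− females) and immune genes (241 to 341 and 259 to 286 CPM). They did not overlap for endothelial genes, at 200.1 to 242 CPM in controls and 167 to 197 CPM in PE−/− females. Of 10 fibroblast and pericyte genes only Col1a2, a chain of type I collagen, was past the threshold, from 164, 168, 135 and 200.4 CPM to 56.3, 36.7 and 36.5 CPM (−1.95, SE 0.23, adjusted p = 0.0207). The summed level of that list was 741 to 1255 CPM in controls and 480.0 to 588 CPM in PE−/− females, and Col1a2 was also the 1 of 30 collagens past the threshold. Col1a2 lost its call without PE+/− replicate 2, PE−/− replicate 2 or PE−/− replicate 3 (−1.95 to −1.84). The 5 erythroid genes were all lower, with 0 past the threshold, 2 at an unadjusted p under 0.05, 0 in DESeq2 and a median of −0.85. The part of these cells in other results was not tested.

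**Figure D3:**
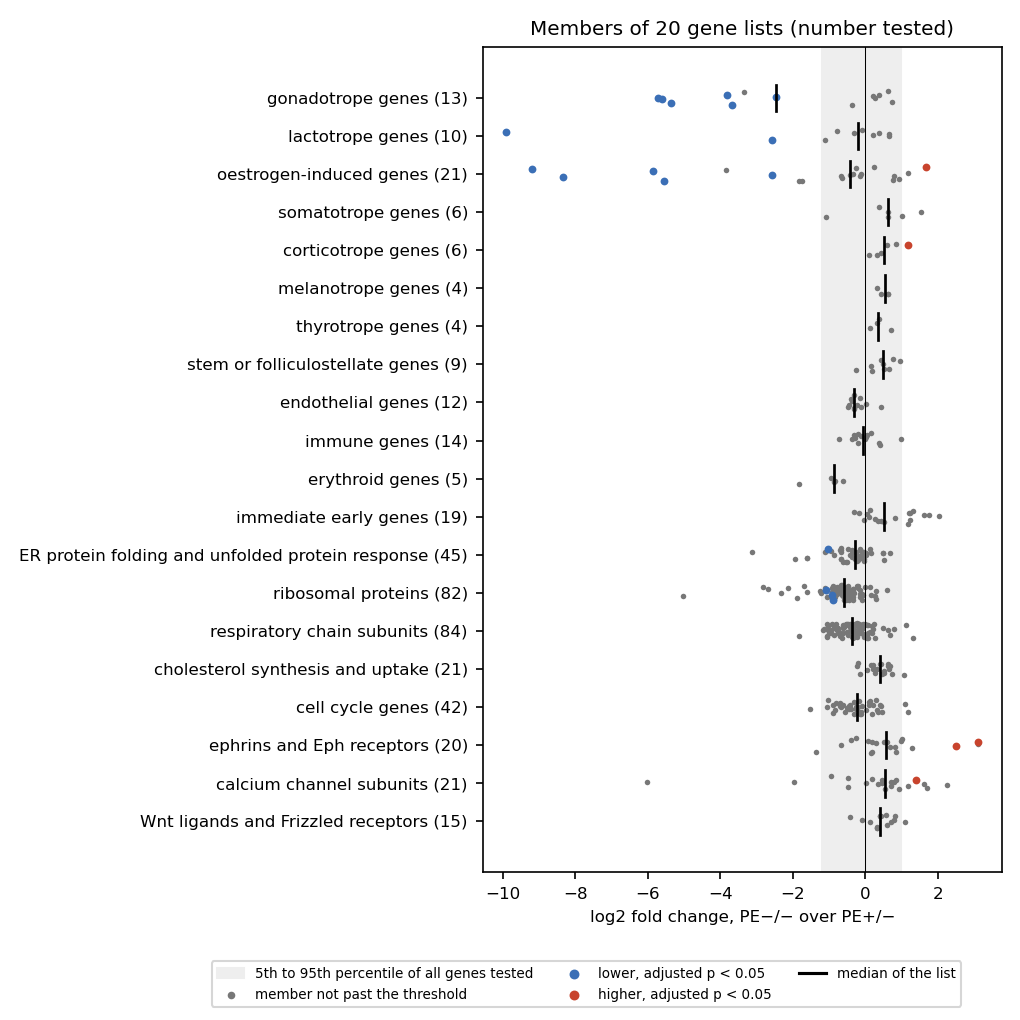
Each row is a gene list with the number of members tested, and each point is 1 member at its log2 fold change, PE−/− over PE+/− females, or at the bound where 1 group is at the floor. Blue and red points are past an adjusted p of 0.05, the black bar is the median of the list and the grey band spans the 5th to the 95th percentile of all genes tested. The gonadotrope median lies at −2.47, outside the band, and ribosomal proteins, at −0.58, are shifted left as a block.

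Cd63, Tspan7 and Lamtor1 fell by a moderate amount with little spread between replicates. Cd63, a tetraspanin of late endosomes and secretory granules (chromosome 10, 128900989 to 128912822), was at 337, 393, 347 and 376 CPM in controls and at 141, 143 and 144 CPM in PE−/− females (−1.35, SE 0.12, adjusted p = 0.00698). Tspan7, another tetraspanin (chromosome X, 10485158 to 10596605), was at 1049, 1125, 1019.6 and 1502 CPM and at 308, 346 and 316 CPM (−1.86, SE 0.17, adjusted p = 0.00905). They were the 2 of 25 tested tetraspanins past the threshold, and the median of the family was −0.09. Lamtor1, which anchors the nutrient-sensing mTORC1 complex at lysosomes, fell from 112 ± 3.71 to 45.0 ± 2.82 CPM (−1.32, SE 0.12, adjusted p = 0.00801). Each of these 3 genes lost its call in 1 fit only, that without PE−/− replicate 3 (−1.35, −1.84 and −1.26).

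Rab proteins, the small GTPases that direct vesicle traffic, moved both ways. Of 58 tested, Rab3d and Rab9b fell and Rab3b rose, with a median of 0.01. Rab3d, a regulator of secretory granules, was at 323, 432, 392 and 410.2 CPM in controls and at 179, 163 and 173 CPM in PE−/− females (−1.18, SE 0.14, adjusted p = 0.0207). Rab3b, a close relative, went the other way, from 118, 84.1, 63.3 and 75.2 CPM to 215, 204 and 214 CPM (1.31, SE 0.21, adjusted p = 0.0435). Rab9b fell from 65.5 ± 6.20 to 28.7 ± 2.22 CPM (−1.19, adjusted p = 0.0207). Rab3d and Rab9b kept their calls without PE+/− replicate 1, 3 or 4 and lost them otherwise (−1.21 to −1.13 and −1.26 to −1.14). Rab3b kept its call only without PE+/− replicate 1 (1.18 to 1.33 otherwise). Among 39 tested genes of regulated exocytosis these Rab3 genes were the 2 past the threshold, and the median was 0.11.

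Genes of early secretion were mostly lower, but few passed. Of 45 tested genes of folding in the endoplasmic reticulum (ER) and the unfolded protein response, 36 had negative values and the median was −0.28, yet only Edem2, which marks misfolded glycoproteins for degradation, was past the threshold (102 ± 13.5 to 50.6 ± 3.89 CPM, adjusted p = 0.0337). Hspa5, the main ER chaperone, was level (3202 ± 543 and 3258 ± 428 CPM, adjusted p = 0.968). The following genes with roles in the same compartments were chosen after their values were seen. Tmed3, of the cargo receptors between ER and Golgi, was at 956, 1080.1, 1027 and 1213 CPM in controls and at 516, 603 and 591 CPM in PE−/− females (−0.91, SE 0.13, adjusted p = 0.0314). Ostc, a subunit of oligosaccharyltransferase, fell from 686 ± 52.7 to 389 ± 24.4 CPM (adjusted p = 0.0314) and Fkbp11, an ER prolyl isomerase, from 83.0 ± 13.8 to 21.5 ± 7.15 CPM (adjusted p = 0.0304). Creb3l1, a transcription factor that is activated by cleavage in the Golgi, fell from 29.7 ± 11.3 to 4.65 ± 1.84 CPM (adjusted p = 0.0383). Kdelr3, which returns proteins to the ER, fell from 109.6 ± 25.6 to 39.9 ± 6.75 CPM (adjusted p = 0.042). In each of these 6 genes the groups did not overlap, and each call held in 1 fit only when a library was left out, that without PE+/− replicate 1. The log2 fold changes in the fits that lost the call were −1.09 to −0.94 for Edem2, −0.95 to −0.84 for Tmed3, −0.87 to −0.77 for Ostc, −2.16 to −1.70 for Fkbp11, −2.87 to −2.38 for Creb3l1 and −1.60 to −1.36 for Kdelr3.

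Ribosomal protein genes were lower almost without exception. Of 82 tested, 76 had negative values and the median was −0.58. Of these, 3 were past the threshold, 40 had an unadjusted p under 0.05 in the lower direction, against 8.39% of all genes, and 38 had groups that did not overlap, against 9.15% of all genes. DESeq2 called 31 lower and 0 higher, where it called 4.52% of all genes lower. Rpl41 and Rps26 were among those called in edgeR. Rpl41 was at 831, 1041, 1061 and 877 CPM in controls and at 431, 492 and 425 CPM in PE−/− females (−1.08, SE 0.14, adjusted p = 0.027). Rps26 fell from 35.8 ± 3.82 to 19.1 ± 1.35 CPM (−0.91, adjusted p = 0.0429). Rplp0 (685 ± 93.4 and 213 ± 84.0 CPM, adjusted p = 0.0581) and Rpl4 (532 ± 20.6 and 363 ± 18.5 CPM, adjusted p = 0.0668), listed as the most abundant members below the threshold, lay just outside. The count of 3 came to 6 without PE+/− replicate 1, to 2 without PE+/− replicate 3 or 4, to 1 without PE−/− replicate 1 and to 0 without PE+/− replicate 2 or PE−/− replicate 2 or 3. Without 1 library the median stayed between −0.63 and −0.53.

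Ribosomal protein genes took 0.673%, 0.759%, 0.869% and 0.695% of the counts in the PE+/− females and 0.392%, 0.472% and 0.445% in the PE−/− females, with no overlap. The elongation factors Eef1a1 and Eef1b2, chosen after their values were seen, fell with them, Eef1a1 from 2399 ± 191 to 1460.5 ± 93.7 CPM (−0.72, adjusted p = 0.0457) and Eef1b2 from 96.3 ± 13.02 to 46.8 ± 1.48 CPM (−1.04, adjusted p = 0.0301). Eef1a1 kept its call only without PE+/− replicate 1 (−0.75 to −0.66 otherwise) and Eef1b2 only without PE+/− replicate 1 or 4 (−1.07 to −0.98). Subunits of the respiratory chain leaned the same way, with 66 of 84 negative and a median of −0.35. In edgeR 0 of them were past the threshold, and 19 had an unadjusted p under 0.05 in the lower direction (against 8.39% of all genes). DESeq2 called 12, all lower (against 4.52%). Transcripts of the mitochondrial genome took 2.63% to 6.55% of the counts in controls and 2.12% to 3.17% in PE−/− females. Many of these genes have near-identical copies elsewhere in the genome, between which reads may be split, and their levels are uncertain to that extent. The part of RNA quality or input in these values was not tested.

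The 63 higher genes had a median level of 16.4 CPM over the 7 libraries and the 126 lower genes one of 40.3 CPM, given without a test. Npbwr1, the receptor of neuropeptides B and W (chromosome 1, 5913707 to 5917398), was at 2.64, 0.933, 2.36 and 2.27 CPM in controls and at 32.7, 40.4 and 50.04 CPM in PE−/− females, 20.01-fold apart in means (4.33, SE 0.37, adjusted p = 0.00698). It was the 1 gene past the threshold in the upward direction among 21 tested receptors for hypothalamic hormones, of which Gnrhr was the 1 that fell, and the median of this list was 0.39. Nell1, a secreted protein with EGF-like repeats (chromosome 7, 49974864 to 50866608), was at 7.84, 9.03, 10.1 and 11.2 CPM in controls and at 45.9, 54.4 and 52.5 CPM in PE−/− females (2.42, SE 0.17, adjusted p = 0.00413). Tnfrsf1a, the main receptor of tumour necrosis factor (chromosome 6, 125349362 to 125362484), was at 19.8, 20.2, 14.2 and 17.7 CPM and at 67.3, 59.0 and 56.8 CPM (1.77, SE 0.17, adjusted p = 0.00927). Of 30 tested TNF ligands and receptors it was the 1 past the threshold, and the median was 0.11.

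**Figure D4:**
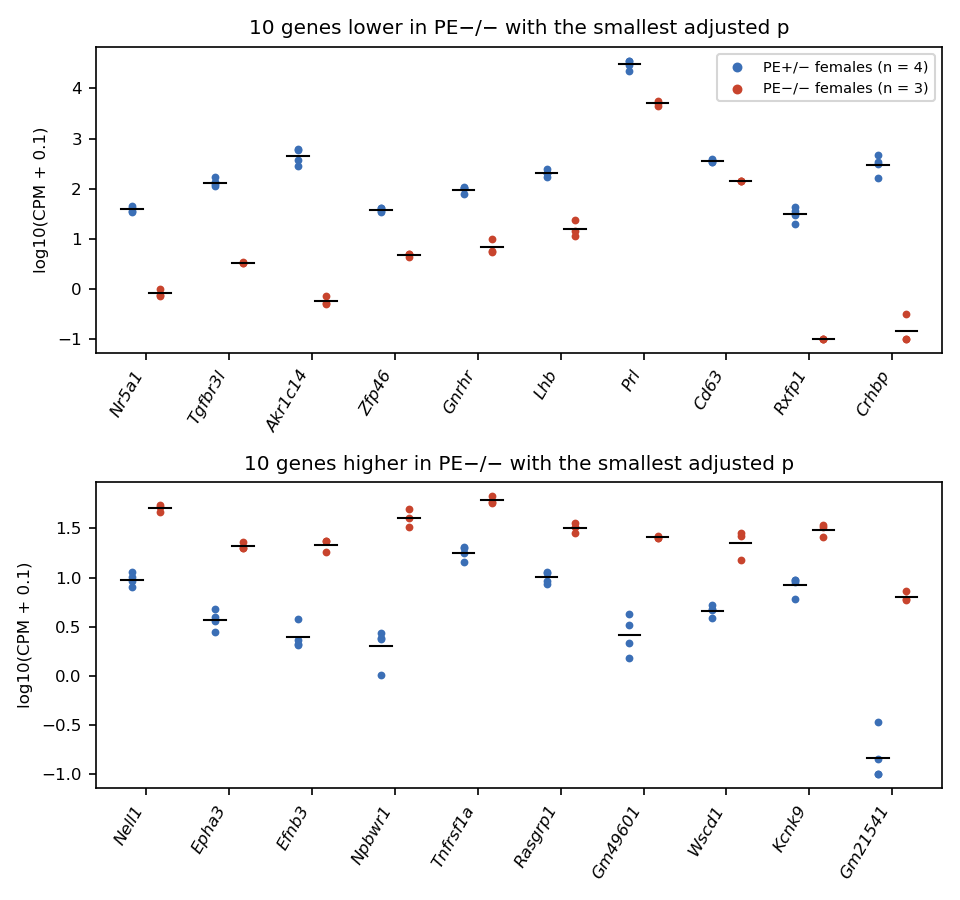
Levels of the 10 lower (top) and 10 higher (bottom) genes with the smallest adjusted p, as log10 of CPM plus 0.1, with 1 point for each PE+/− (blue, n = 4) and PE−/− (red, n = 3) female and a bar at the mean of the log values. The groups do not overlap in any of the 20 genes, as the rule that chose them required. Points at −1 are libraries with 0 counts, as for Rxfp1 in the 3 PE−/− females.

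Cell-contact signals of the ephrin family rose in part. Epha3 and Efnb3, a receptor and a ligand that sit on opposing cell membranes, were the 2 of 20 tested ephrins and Eph receptors past the threshold, and the median was 0.57. Epha3 (chromosome 16, 63543534 to 63864175) was at 3.84, 4.71, 2.69 and 3.50 CPM in controls and at 19.998, 23.0 and 19.9 CPM in PE−/− females (2.51, SE 0.21, adjusted p = 0.00698). Efnb3 (chromosome 11, 69554092 to 69560205) was at 1.999, 2.21, 1.98 and 3.68 CPM and at 18.01, 23.2 and 23.3 CPM (3.12, SE 0.27, adjusted p = 0.00698). These 2 calls held without any single library. Of 43 tested semaphorins, plexins, netrins, Slits and their receptors 0 were past the threshold, with a median of 0.33. At an unadjusted p under 0.05, 10 were higher and 4 lower (against 7.75% and 8.39% of all genes). DESeq2 called 4 higher and 1 lower (against 3.4% and 4.52%). Of 80 tested cadherins and protocadherins Cdh2, N-cadherin, was the 1 past it, from 24.8 ± 5.30 to 56.3 ± 3.35 CPM (1.19, adjusted p = 0.0429), and lost its call without any 1 of the 7 libraries (1.08 to 1.29). Cldn8, a tight-junction protein and the 1 of 14 claudins past the threshold, fell from 261 ± 54.9 to 82.1 ± 14.9 CPM (−1.67, SE 0.21, adjusted p = 0.0258), and kept its call only without PE+/− replicate 1 or 4 (−1.79 to −1.53 otherwise).

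Among ion channels the background potassium channels Kcnk9 (TASK-3) and Kcnk3 (TASK-1) rose. Kcnk9 was at 5.998, 9.46, 9.38 and 8.96 CPM in controls and at 34.1, 26.0 and 32.8 CPM in PE−/− females (1.87, SE 0.21, adjusted p = 0.0194). Kcnk3 was at 14.96, 10.8, 6.804 and 8.53 CPM and at 36.8, 38.7 and 41.3 CPM (1.93, SE 0.27, adjusted p = 0.0297). Kcns2, a silent subunit of voltage-gated channels, was at 1.52 to 8.45 CPM in controls and at 0 counts in each PE−/− female, at least 10.4-fold lower (adjusted p = 0.042). These were 3 of 71 tested potassium channel subunits, with a median of 0.17. At an unadjusted p under 0.05, 18 were higher and 5 lower (against 7.75% and 8.39% of all genes). Higher groups without overlap were found for 20 (against 9.44%). DESeq2 called 11 higher and 4 lower (against 3.4% and 4.52%). Of 21 tested calcium channel subunits only Cacna1i, a T-type channel, was past the threshold (3.88 ± 0.744 to 10.2 ± 1.45 CPM, adjusted p = 0.0435), while the median was 0.55. At an unadjusted p under 0.05, 6 were higher and 3 lower (against 7.75% and 8.39% of all genes). Higher groups without overlap were found for 9 (against 9.44%). DESeq2 called 6 higher and 3 lower (against 3.4% and 4.52%). Of 18 tested glutamate receptor subunits only Grik3 was, from 3.59 ± 1.11 to 16.3 ± 6.77 CPM (2.19, adjusted p = 0.042). Kcnk9 lost its call without PE+/− replicate 2 or PE−/− replicate 1 or 3 (1.80 to 1.93). Kcnk3 kept its call only without PE+/− replicate 1 or 3 (1.84 to 1.97 otherwise), Kcns2 and Grik3 only without PE+/− replicate 1 (1.81 to 2.41 for Grik3, Kcns2 still at 0 counts), and Cacna1i in no such fit (1.26 to 1.51).

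Solute carriers, the largest family examined after the zinc finger proteins, moved in both directions, with 4 of 251 higher, 4 lower and a median of 0.04. Slc5a8, which carries monocarboxylates, fell from 44.2 ± 12.8 to 5.52 ± 1.66 CPM (−3.00, SE 0.33, adjusted p = 0.0194). The amino acid carriers Slc7a5 (13.97 ± 6.12 to 3.16 ± 0.619 CPM, adjusted p = 0.0465) and Slc7a7 (12.6 ± 4.13 to 2.31 ± 0.609 CPM, adjusted p = 0.0297) and the sodium-calcium exchanger Slc8a3 (8.12 ± 1.95 to 1.62 ± 0.353 CPM, adjusted p = 0.0238) also fell. Slc17a8, the vesicular glutamate transporter VGLUT3, rose from 5.998, 5.94, 2.96 and 4.48 CPM to 22.1, 20.4 and 28.5 CPM (2.29, SE 0.28, adjusted p = 0.0209). Slc10a4 (31.6 ± 5.57 to 87.7 ± 27.8 CPM, adjusted p = 0.0435), the potassium-chloride carrier Slc12a7 (25.1 ± 5.13 to 60.9 ± 11.9 CPM, adjusted p = 0.0445) and the inositol carrier Slc5a3 (29.1 ± 5.11 to 57.7 ± 0.804 CPM, adjusted p = 0.0445) rose as well. The 8 calls came to 10 without PE+/− replicate 1, to 4 without PE+/− replicate 3, to 2 without PE+/− replicate 4, to 1 without PE−/− replicate 3 and to 0 without PE+/− replicate 2 or PE−/− replicate 1 or 2.

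Regulators of transcription and growth added single genes. Zfp46 fell from 42.1, 33.6, 42.0 and 35.4 CPM to 4.35, 4.82 and 4.93 CPM (−3.02, SE 0.17, adjusted p = 0.00101), and Zfp750, a factor of epidermal differentiation, rose from 8.62 ± 0.910 to 20.6 ± 3.56 CPM (1.25, adjusted p = 0.0301). They were 2 of 334 tested zinc finger proteins, with a median of −0.01. Sox11, a developmental factor and 1 of 54 tested SOX, FOX, KLF and related factors, rose from 61.5 ± 13.5 to 136 ± 11.1 CPM (1.15, adjusted p = 0.0435). Of 40 tested nuclear receptors only Nr5a1 and Nr0b1 were past the threshold, and the median was 0.26. Cpeb4, which controls translation through the poly(A) tail, fell from 15.2, 13.3, 16.7 and 10.9 CPM to 2.24, 2.41 and 1.80 CPM (−2.70, SE 0.23, adjusted p = 0.00698). Rasgrp1, an activator of Ras, rose from 10.1 ± 1.43 to 32.1 ± 3.70 CPM (1.67, SE 0.17, adjusted p = 0.0137), Wscd1 from 4.54 ± 0.554 to 23.3 ± 7.23 CPM (2.36, SE 0.25, adjusted p = 0.0176) and Zfp385a from 30.04 ± 5.51 to 84.2 ± 5.49 CPM (1.49, SE 0.18, adjusted p = 0.0209). Zfp750 and Sox11 kept their calls only without PE+/− replicate 1 (1.15 to 1.39 and 1.06 to 1.21 otherwise). Rasgrp1 lost its call without PE−/− replicate 3 (1.66), Wscd1 without PE+/− replicate 2 or PE−/− replicate 2 or 3 (2.19 to 2.37) and Zfp385a without PE+/− replicate 4 or any PE−/− replicate (1.43 to 1.52). The rule also named Gm21541, at 0.240, 0.0424, 0 and 0 CPM in controls and 7.20, 5.79 and 5.94 CPM in PE−/− females, and Gm49601. The latter overlaps Sept5, which fell, and the sum of that locus changed by only 0.31, so it is uncertain.

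The next lists had no member past the threshold in edgeR. Of 42 tested cell cycle genes 0 were past the threshold in edgeR, with a median of −0.22. At an unadjusted p under 0.05 there were 7 (against 16.1% of all genes), and DESeq2 called 1 (against 7.91%). Cdkn1c, the cell cycle inhibitor p57 and chosen after its values were seen, rose from 5.60, 3.94, 2.03 and 4.30 CPM to 19.7, 31.2 and 31.7 CPM (2.80, SE 0.35, adjusted p = 0.0227). It lost its call without PE+/− replicate 2 or 4 or PE−/− replicate 2 or 3 (2.69 to 2.84). Of 19 tested immediate early genes 16 had positive values (median 0.53) and 0 were past the threshold, with 2 at an unadjusted p under 0.05 and 1 in DESeq2. Their controls were widely spread, as for Nr4a1 with 19.0 to 699 CPM in controls and 551 to 720.1 CPM in PE−/− females. Junb did not overlap, with 186 to 874 CPM in controls and 921 to 1368 CPM in PE−/− females (1.18, adjusted p = 0.314). Of 21 tested genes of cholesterol synthesis and uptake 18 had positive values (median 0.41), 0 were past the threshold, 8 had an unadjusted p under 0.05 (against 7.75% of all genes), 8 had higher groups without overlap (against 9.44%) and DESeq2 called 4 (against 3.4%), all higher. Their summed level was 755 to 964 CPM in controls and 1089 to 1239 CPM in PE−/− females. Hmgcs1, an early enzyme of the pathway, was at 71.9 ± 10.2 and 120.2 ± 7.68 CPM (0.74, adjusted p = 0.0695). Of 22 tested interferon-induced genes 0 were past the threshold, with a median of 0.45. At an unadjusted p under 0.05, 5 were higher and 2 lower (against 7.75% and 8.39% of all genes). DESeq2 called 4 higher and 1 lower (against 3.4% and 4.52%). In all, 29 of the 59 lists and families examined had a member past the threshold, and 6 had more than 2.

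The males of the series are set beside the females for these genes. The genes were chosen by the female test, which by itself tends to enlarge their female medians. The gap between the medians of the sexes therefore does not measure what they share. Of the 126 genes lower in females 116 were tested in males, and their median log2 fold change was −1.63 in females and −0.19 in males, with 96 of the 116 below 0 in males. The 63 higher genes had medians of 1.69 in females and 0.50 in males, with 52 above 0. In males alone 23 genes were past the threshold, and 12 of them were among the 189. The interaction of genotype and sex, fitted on all 15 libraries, was past the threshold for 31 of 19286 genes (0.161%), 16 of them among the 189. Of these 16, 14 fell and 2 rose in females. Tspan7 (interaction −1.91, adjusted p = 0.00518), Cd63 (−1.34, adjusted p = 0.00761), Rab9b (−1.16, adjusted p = 0.0184), Cldn8 (−2.29, adjusted p = 0.0218), Rab3d (−1.07, adjusted p = 0.0267) and Tmed3 (−1.02, adjusted p = 0.0347) were of this kind.

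For several of these genes the PE+/− females had the highest of the 4 group means, given here side by side without a test between the sexes. Tspan7 averaged 1174 ± 223 CPM in female controls and 323 ± 20.3 CPM in females without the enhancer, and 317 ± 46.2 CPM in male controls and 330.2 ± 29.9 CPM in males without it, where male values were scaled over all 15 libraries. Cd63 was at 363 ± 25.8, 143 ± 1.52, 165 ± 16.7 and 165 ± 19.8 CPM in the same order. Crhbp, at 323 ± 127 CPM in PE+/− females, had a mean of 0 CPM in male controls and of 0.219 ± 0.254 CPM in males without the enhancer, and its interaction was past the threshold (adjusted p = 0.0184). Reln, which encodes the matrix protein reelin and was chosen after its values were seen, was at 58.8 ± 29.4, 3.65 ± 0.882, 0.443 ± 0.571 and 2.86 ± 0.861 CPM (adjusted p of the interaction 0.0212). The share of counts in ribosomal protein genes was also highest in PE+/− females, with 0.749% ± 0.0876 in PE+/− females, 0.436% ± 0.0409 in PE−/− females, 0.483% ± 0.0263 in PE+/− males and 0.478% ± 0.0448 in PE−/− males. In both sexes the calls included Nr5a1 and Nr0b1 as well as Lhb and Gnrhr. In males Tgfbr3l (log2 fold change −5.05, adjusted p = 0.0952) and Spp1 (−3.31, adjusted p = 0.29) had lower values but missed the threshold. Their interaction was not past it (adjusted p = 0.958 and 0.827), so a difference between the sexes was not shown. Fshb missed the threshold in females and in males (adjusted p = 0.0506 in males). The interaction was not past the threshold for Nr5a1 (1.48, adjusted p = 0.538), Lhb (1.36, adjusted p = 0.452) or Gnrhr (0.96, adjusted p = 0.569). For Prl (−2.40, adjusted p = 0.274), Gal (−6.35, adjusted p = 0.0854) and Akr1c14 (−6.09, adjusted p = 0.344) a difference between the sexes was not shown.

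**Figure D5:**
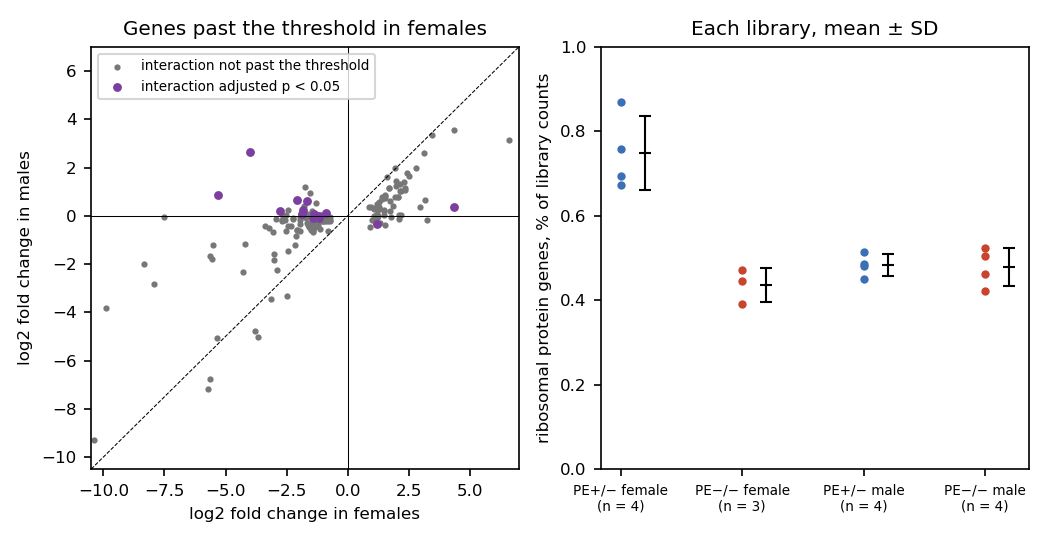
Left, log2 fold change (PE−/− over PE+/−) in females against that in males for the 179 genes past the threshold in females that were tested in males, with the 15 of them whose interaction of genotype and sex was past the threshold in purple and the line of equality dashed. Bmp15, at 8.75 in females and 2.29 in males, lies outside the drawn range. Right, the share of each library's counts in ribosomal protein genes, with the mean ± SD beside each group (n = 4, 3, 4 and 4), where the PE+/− females lie above the 3 other groups.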

How the data were processed

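The study states that RNA was taken from whole pituitaries and that libraries were made with a low-input kit. Per the study's methods, reads were trimmed with cutadapt, aligned with STAR to mm10 and counted with featureCounts. The deposited table gives, per the authors' files, 1 estimated count per gene and library for 55523 rows (coordinates as in the table, GENCODE M21). Values were whole numbers in steps of about 4 per fragment, under identifiers of assembled loci, which the stated counter does not give by itself, so how they were made is not settled. Default settings of that counter ignore strand, so overlapping, antisense and near-identical genes are uncertain. No molecular identifiers were counted, so floors and intervals cover counting error only. Columns matched to no sample numbered 0.

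Groups came from the labels. Counts of the 7 female libraries were filtered with filterByExpr (minimum count 10, total 15), scaled by TMM and tested with the two-sided quasi-likelihood test of edgeR 4.0.16 (R 4.3.3) with Benjamini-Hochberg adjustment at 0.05. The common biological coefficient of variation was 44.3%. SE is the log2 fold change over the square root of F. Males were fitted likewise, and the interaction was fitted on all 15 libraries. The scripts were tested on simulated data. Alternatives were DESeq2 1.42.0, other scalings, filters and tests, sums per locus, a replicate block, and leaving out each library. Tables and figures were made with Python 3.11.15, pandas 2.3.3, scipy 1.17.1 and matplotlib 3.10.9.

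The comparison and the 59 lists were chosen with earlier results of these data known. Named genes were Nr5a1, Lhb, Fshb, Cga, Gnrhr, Prl, Gh, Pomc and Tshb, the 12 lower and 12 higher genes with the smallest adjusted p whose groups did not overlap and whose mean was at least 20 counts, and in each list up to 8 members past the threshold and 4 others of high mean. Genes outside this rule are marked in the text as chosen after their values were seen. Some genes that the rule names are not reported here.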

Additional observations from a re-analysis of the deposited data

Results flagged for a closer look

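Among the 4 PE+/− females, 1 library lay far from the other 3 for several genes, by the size of its gap relative to the range of the group. This was so for 7 of 108 genes examined, and chance alone gives such a gap in about 1 group in 20, so the number is near the chance share. PE+/− replicate 4 had 1764 CPM of Fshb against 165 to 367 CPM in the others, and 3.68 CPM of Efnb3 against 1.98 to 2.21 CPM. PE+/− replicate 3 had 66.3 CPM of Greb1 against 19.0 to 23.6 CPM, 67.3 CPM of Oxtr against 0.800 to 3.13 CPM, and 23.0 CPM of Slc7a5 against 10.3 to 12.2 CPM. PE+/− replicate 1 had 89.4 CPM of Gal against 735 to 769 CPM, and 5.998 CPM of Kcnk9 against 8.96 to 9.46 CPM. The stage of the oestrous cycle of these females is not in the labels and its part in these values was not tested.

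The effect of the genotype differed between the sexes, by the interaction term in edgeR, for 8 of the genes named here. Each was lower in PE−/− females, and the interaction was −1.91 for Tspan7 (adjusted p = 0.00518), −1.34 for Cd63 (0.00761), −1.16 for Rab9b (0.0184), −2.29 for Cldn8 (0.0218), −1.07 for Rab3d (0.0267), −1.02 for Tmed3 (0.0347) and −6.67 for Reln (0.0212). For Crhbp the fitted value of −16.76 (adjusted p = 0.0184) depends on the prior count, since PE−/− females and PE+/− males were at or under the floor.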

How the results depend on the processing

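Of 18085 genes 189 were past the threshold, and counts within 1.5 times of this came from DESeq2 size factors, counts divided by 4, sums per locus, library totals and a filter of 1 CPM. DESeq2 called 1431, the likelihood ratio test of edgeR 710, a fit on all 15 libraries 714 and a fit without the low-count filter 123, and the cause was not tested. Leaving out 1 library gave 29 to 244 calls. The interaction of genotype and sex, at 31 genes, came to 392 in DESeq2, 202 in the likelihood ratio test and 7 to 71 when 1 library was left out. With a replicate block 1 gene was called in females and 11 in the interaction. Same-numbered libraries had correlations of 0.138, 0.0833 and −0.0513 between their deviations from the group means. Libraries with different numbers had −0.135 to 0.107. The labels do not say whether the numbers mark pairs, and so few libraries cannot settle it. Among named genes, the sign turned only for some that had missed the threshold. List medians near 0 were less stable, and 20 of the 59 changed sign under an alternative. Without PE+/− replicate 1 the median went from −0.20 to 0.024 for lactotrope genes, from −0.13 to 0.0054 for neuropeptides and peptide-binding proteins and from −0.22 to 0.018 for cell cycle genes. Leaving out 1 library gave −0.43 to 0.19 for Xbp1, −0.27 to 0.045 for Ccnd1 and −0.069 to 0.13 for Hspa5. Xbp1 came to 0.37 with the replicate block, 0.19 and 0.074 without PE+/− replicate 3 and 4 and 0.12 without PE−/− replicate 3. The turns came without PE+/− replicate 1 for Ccnd1 and without PE+/− replicate 2 or PE−/− replicate 1 for Hspa5. With 3 PE−/− libraries and a coefficient of variation of 44.3%, a gene that missed the threshold is not shown to be equal between the groups.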

Other observations

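Some families had summed levels that did not overlap between the female groups although 0 members were past the threshold in edgeR. This held for 12 of the 30 lists without such a member, 7 higher and 5 lower in PE−/− females, and for 13 higher and 13 lower of all 59 lists. Single genes had groups without overlap in 9.44% (higher) and 9.15% (lower) of all genes tested. No such share was computed for sums, so these counts are not a result about the families. The 3 given here were chosen after their values were seen. The genes of the insulin-like growth factor system, which carries growth signals in many tissues, summed to 402 to 1071 CPM in PE+/− and 1269 to 1474 CPM in PE−/− females, with 14 tested, 2 at an unadjusted p under 0.05, 1 in DESeq2 and a median log2 fold change of 0.33. Wnt ligands and Frizzled receptors summed to 136 to 222 CPM and 291 to 314 CPM, with 13 of 15 positive, 2 at an unadjusted p under 0.05, 2 in DESeq2 and a median of 0.42. Iron-handling genes summed to 2276 to 2517 CPM in PE+/− and 1592 to 2100 CPM in PE−/− females, with 17 tested, 4 at an unadjusted p under 0.05, 4 in DESeq2 and a median of 0.02. A sum is set by its most abundant members, which for iron handling included Ftl1 and Fth1, the ferritin chains that store iron.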
